A study of Arabidopsis thaliana with 12 samples.

Results

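The genes described are AGL103, AGL26, AGL54, SPL and DME of Arabidopsis thaliana, 3 genes with MADS-box names and 2 regulators of reproduction. They were chosen as the genes of these names to which the platform annotation assigns a feature of their own. Each of the 5 lies on 1 such feature, out of 692 features of a single gene and 3439 features in all. Hybridization signals of total RNA had been recorded for 6 samples of the psbs mutant and 6 samples of wild type (WT), both in the ecotype Columbia 0. According to the labels the mutant is without PSII-S. This protein, PsbS, lets leaves shed surplus light energy as heat within moments. The mutant allele, the tissue, the age, the light regime and the origin of the replicates are not given in the labels, so p-values cover the spread among these samples alone, and that spread may be technical. The study set the mutant against WT to find transcripts whose level depends on this protein.

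MADS-box proteins are transcription factors that bind DNA through a conserved domain, and in plants they are best known for setting floral organ identity and flowering time. A second branch of the family, called type I, is known mainly from the female gametophyte, the embryo and the endosperm, the nutritive tissue of the seed. AGL103 (AT3G18650) and AGL54 (AT5G27090) belong to this type I branch. AGL26 (AT5G26880) carries a MADS-box name, but its locus is also annotated as an RNA methyltransferase of the SpoU family. SPL (AT4G27330), also called SPOROCYTELESS or NOZZLE, is a nuclear protein required for the formation of the spore-producing cells in anthers and ovules. DME (AT5G04560), or DEMETER, is a DNA glycosylase that removes methylated cytosine, and it is known for switching on the maternal copies of imprinted genes in the central cell of the ovule.

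Other genes of these pathways were rarely measured on features of their own. Of 134 MADS-box names looked for, only AGL103, AGL26 and AGL54 had one, and AGL26 and AGL54 each also lay on 1 further feature that they share with other genes, which was not used. Among 38 names of sporogenesis, anther and ovule development SPL alone was found, and among 42 names of imprinting, DNA methylation and demethylation DME alone. None of 26 meiosis names had a feature of its own. In the genome annotation AGL26 and AGL54 are near neighbours, with 21 protein-coding loci between them.

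No tissue was labelled that markers could be set against. Of 16 markers of green leaf tissue 5 lay on features of a single gene (PSAN, PSBY, LHB1B2, PRK and PSBW), and all 5 were above 0 in every sample. Their levels differed between the groups, with mean intensities of 23.8 in psbs and 4.33 in WT for PSAN, 8.47 in psbs and 2.15 in WT for PSBY, 31.3 in psbs and 12.2 in WT for LHB1B2, 13.0 in psbs and 1.59 in WT for PRK, and 15.2 in psbs and 45.4 in WT for PSBW. The part of this in the results below was not tested. None of the 10 anther and pollen markers or the 8 ovule and endosperm markers did, so the presence of reproductive tissue could not be examined.

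Values are linear intensities between 0 and 100, with exact 0 values whose meaning is not given in the sources used here. The groups differed over the whole table. The median intensity of a sample was 0.0317 ± 0.00613 in psbs and 0.339 ± 0.0334 in WT (SD, n = 6 each), and the share of features at exactly 0 was 29.8% ± 3.40 in psbs and 13.5% ± 0.320 in WT (SD, n = 6 each). psbs samples 1 and 2 stood apart within their group, with correlations of 0.762 to 0.781 to psbs samples 3 to 6 over all features. Pairs within psbs reached at most 0.885, and WT samples correlated more tightly, at 0.961 to 0.987. A low deposited value in psbs was thus shared by most features, and 67.3% of those tested had psbs intensities wholly below those of WT. Each gene was described in 3 ways. These were its intensity as deposited, its percentile rank among all features of the same sample, and its log2 difference after quantile scaling. That scaling draws all samples to a shared distribution of values, but values at 0 were kept at 0. With more features at 0 in psbs, dim values above 0 are placed higher there, in the scaled values as in the ranks. In total RNA, fewer cells that express a gene and less RNA per cell cannot be told apart. Precision is limited by the 6 samples a group.

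AGL54 was the only one of the 5 genes with signal in every WT sample and none in most psbs samples. It was listed at 0 in 5 psbs samples and had an intensity of 0.0410 in psbs replicate 4. In WT it ran from 0.446 through a median of 0.483 to 0.553. Every WT sample was thus above the brightest psbs sample, as for 67.3% of features. The spread of the WT samples was small, with a coefficient of variation of 7.71%. The mean in WT was 0.489 ± 0.0377 (SD, n = 6). No fold is given against a group that is mostly at 0.

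On the quantile-scaled log2 scale AGL54 fell by 2.005 ± 0.307 (SE, limma adjusted p = 0.000126), with psbs at -3.85 and WT at -1.85. Of all 3359 tested features 29.1% were called lower in psbs in the same fit, and 55.3% were called in either direction. The lower end of this scale is a floor for dim values, so the size of the difference is set partly by the floor. AGL54 was also called lower with values as deposited, at -5.10 (73.0% of features called lower). It was called lower after centring each sample on its median, at -2.90 (36.0% called lower), and after cyclic loess, at -1.09 (26.8% called lower). After quantile scaling 7.29% of features had a more negative difference. With 0 values treated as missing only psbs replicate 4 remained, and AGL54 was at -0.46 and not called (limma adjusted p = 0.140).

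In 5 psbs samples the percentile rank of AGL54 was the rank given to every 0 value, between 13.5% and 17.5%, and in psbs replicate 4 it was 53.0%. In WT it ran from 56.4% through a median of 65.2% to 69.5%, and no WT sample overlapped with psbs, as for 22.0% of features. The mean rank differed by -42.8 percentage points, psbs minus WT (exact permutation test, two-sided, adjusted p = 0.00444 over all features), and 29.4% of features were called lower in this test. The number of samples at 0, 5 in psbs and 0 in WT, gave p = 0.0152 in Fisher's exact test, but this did not pass after adjustment over all features (adjusted p = 0.197). In that test 4.44% of features were called with more psbs samples at 0. These were the 149 features at 0 in all psbs samples and above 0 in all WT samples. A split of 5 against 0 had the same p for every feature that showed it and passed for none. The pattern of AGL54, above 0 in all WT samples and at 0 in at least 5 psbs samples, was found for 240 of 3359 features (7.14%), 54 of which carried a single gene.

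SPL kept a signal in all 12 samples, but a dim one in psbs. Its intensity ran from 0.00401 through a median of 0.0231 to 0.0459 in psbs, and from 0.290 through a median of 0.555 to 0.662 in WT. The groups did not overlap. This was so for 67.3% of features, so it does not set SPL apart. The mean was 0.0246 ± 0.0167 in psbs and 0.529 ± 0.137 in WT (SD, n = 6 each), and the WT mean was 21.5 times that of psbs. This fold is not corrected for the lower sample medians of psbs, on average 0.0317 against 0.339 in WT. SPL in psbs replicate 3, at 0.00401, lay below the floor of 0.0115 used for log2 values as deposited.

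The lower position of SPL in psbs was also seen relative to the other features of a sample. Its percentile rank ran from 29.7% through a median of 46.1% to 55.2% in psbs, and from 47.9% through a median of 69.0% to 71.1% in WT. The groups overlapped through WT replicate 6, which at 47.9% lay below 2 of the psbs samples (replicates 4 and 6). The mean rank differed by -20.5 percentage points, psbs minus WT (exact permutation test, two-sided, adjusted p = 0.0120 over all features), and 29.4% of features were called lower. With ranks limited to the 1407 features with signal in every sample the mean rank differed by -34.9 points (exact permutation test, adjusted p = 0.00363). That test called 1050 of the 1407 features in either direction. After quantile scaling SPL fell by 0.89 ± 0.226 (SE) on the log2 scale (limma adjusted p = 0.00523), with psbs at -2.66 and WT at -1.78. In that fit 29.1% of features were called lower. SPL was called lower as deposited, at -4.53 (73.0% of features called lower), and after median centring, at -1.999 (36.0% called lower). It was not called after cyclic loess, where the difference was -0.62 with a 95% interval from -1.33 to 0.09 (limma adjusted p = 0.139).

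**Figure D1:**
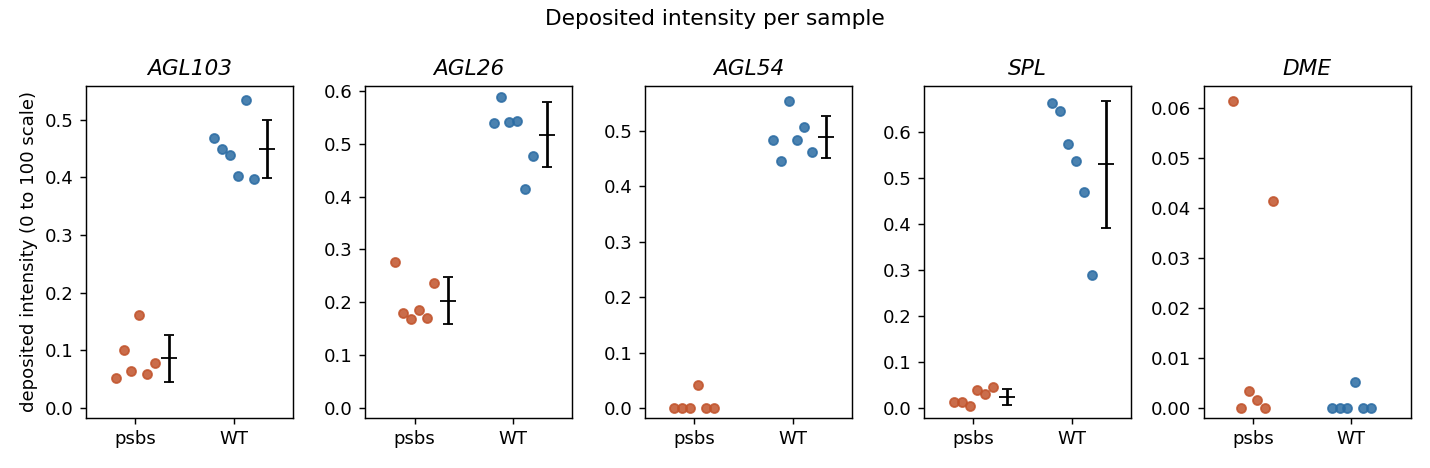
Deposited intensity (vertical axis, own scale for each gene) of the 6 psbs samples (left) and the 6 WT samples (right), 1 point per sample, with the mean and SD drawn only where all 6 samples are above 0. For AGL103, AGL26, AGL54 and SPL all psbs points lie below all WT points, as for 67.3% of features. For DME only 2 psbs points, at 0.0613 and 0.0413, stand above the brightest WT point.

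AGL26 moved in opposite directions on the deposited and on the relative scales. Its intensity ran from 0.168 through a median of 0.183 to 0.277 in psbs, and from 0.414 through a median of 0.540 to 0.588 in WT. All psbs samples were thus lower, as for 67.3% of features. The mean was 0.203 ± 0.0440 in psbs and 0.517 ± 0.0616 in WT (SD, n = 6 each), a 2.54-fold difference. As deposited the log2 difference was -1.36 ± 0.146 (SE, limma adjusted p = 3.13e-06), where 73.0% of features were called lower. The median difference of all features on that scale was -2.86, and 69.1% of features had a more negative difference than AGL26.

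Relative to the other features AGL26 stood higher in psbs. Its percentile rank ran from 79.3% through a median of 80.4% to 84.7% in psbs, and from 61.5% through a median of 67.1% to 68.6% in WT, without overlap. Ranks of the groups lay wholly higher in psbs for 26.7% of features. The mean rank was 15.5 percentage points higher in psbs (exact permutation test, two-sided, adjusted p = 0.00444 over all features), and 33.6% of features were called higher in this test. After quantile scaling AGL26 rose by 0.84 ± 0.104 (SE, limma adjusted p = 2.12e-05), with psbs at -0.94 and WT at -1.77, where 26.2% of features were called higher. The difference was 1.25 after median centring, where 20.6% of features were called higher, and 0.79 after cyclic loess, where 22.8% were, and AGL26 was called in both. Among the 3 MADS-named genes AGL26 was called higher, AGL54 lower and AGL103 neither after quantile scaling, with a median of 0.32 for the 3 against 0.05 for all features. With values as deposited all 3 were called lower, where 73.0% of all features were, so this count does not set them apart.

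AGL103 was lower in deposited intensity, but no difference in its position among the features passed a test over all 12 samples. It ran from 0.0526 through a median of 0.0713 to 0.162 in psbs, and from 0.398 through a median of 0.444 to 0.534 in WT. All psbs samples lay below all WT samples, as for 67.3% of features. The means were 0.0864 ± 0.0408 in psbs and 0.448 ± 0.0503 in WT (SD, n = 6 each), a 5.19-fold difference. On the log2 scale as deposited the difference was -2.48 (limma adjusted p = 1.61e-06), close to the median of -2.86 over all features.

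The percentile rank of AGL103 ran from 61.7% through a median of 65.3% to 78.4% in psbs, and from 56.9% through a median of 59.3% to 71.3% in WT. The groups overlapped, and the difference of 7.02 percentage points did not pass (exact permutation test, two-sided, adjusted p = 0.110 over all features). When ranks were limited to the 1407 features with signal in every sample the difference was -4.67 points, again without passing (exact permutation test, adjusted p = 0.442). After quantile scaling the log2 difference was 0.32 ± 0.165 (SE), with a 95% interval from -0.05 to 0.68 (limma adjusted p = 0.123). WT replicate 5 was the WT sample with the highest rank, 71.3%. Without it AGL103 was called higher, at 0.42 (limma adjusted p = 0.0471), where 832 features were called higher. The rank difference of AGL103 was then 9.13 points (exact permutation test, adjusted p = 0.0180), in a test that called 1977 of 3357 features. Neither median centring, at 0.13, nor cyclic loess, at 0.60, gave a call.

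**Figure D2:**
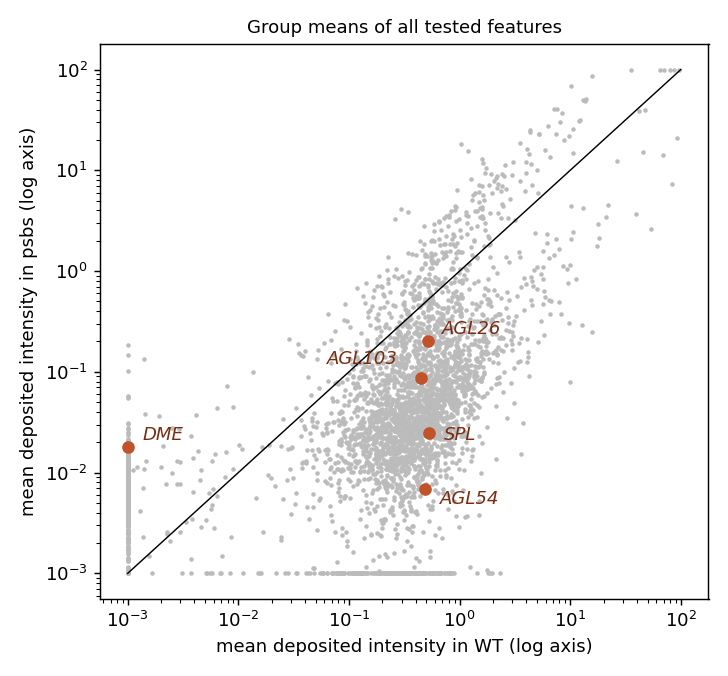
Mean deposited intensity in psbs (vertical, log axis) against WT (horizontal, log axis) for the 3359 features above 0 in at least 1 sample, with means under 0.001 drawn at 0.001 and the line of equal means. AGL26, AGL103, SPL and AGL54 lie under the line at WT means of 0.448 to 0.529, with psbs means from 0.203 down to 0.00684, and DME lies above the line at the left edge.

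DME had little or no signal in WT. It was listed at 0 in 5 WT samples and stood at 0.00530 in WT replicate 4. In psbs it was above 0 in 4 samples, at 0.0613 in replicate 1, 0.0413 in replicate 6, 0.00334 in replicate 3 and 0.00159 in replicate 4, and at 0 in replicates 2 and 5. Only psbs replicates 1 and 6 were thus brighter than the brightest WT sample, and the groups overlapped.

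The difference of DME did not pass the fit. Quantile scaling placed psbs replicate 4 (0.00159 as deposited) at -3.43 and the brighter WT replicate 4 (0.00530) at the floor of -4.16. After quantile scaling, where all WT samples were at the floor, the difference was 0.94 ± 0.376 (SE), with a 95% interval from 0.12 to 1.76 (limma adjusted p = 0.0503). Its size was set partly by the floor, being 0.52 with the floor at the 10th percentile (limma adjusted p = 0.160) and 1.41 with 0 values missing, which leaves 1 WT sample (limma adjusted p = 0.159). DME was called higher, at 0.92, without psbs replicates 1 and 2 (limma adjusted p = 0.0217). It was also called at 1.18 without either psbs replicate 2 (limma adjusted p = 0.0181) or psbs replicate 5 (limma adjusted p = 0.0188), the samples at 0. In these fits 980, 931 and 903 features were called higher, in that order. As deposited the difference was 0.71, with an interval from -0.24 to 1.66 (limma adjusted p = 0.152). The numbers of samples at 0, 2 in psbs and 5 in WT, did not pass Fisher's exact test (p = 0.242, adjusted p = 1.0), where 0.149% of features were called with fewer psbs samples at 0. DME belonged to 56 features (1.67% of those tested) at 0 in at least 5 WT samples and above 0 in at least 4 psbs samples, 28 of which had a feature number divisible by 6. Of the 1407 features above 0 in all 12 samples, 12 had such a number. The share over all features was not counted, and the cause was not tested. The DME feature, number 1919, was not among the 28, nor was the number of any of the other 4 genes divisible by 6.

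Ranks of DME need care because values at 0 share a rank that grows with their number. A value at 0 had a percentile rank of 13.5% to 17.5% in psbs and of 6.53% to 6.88% in WT. The ranks of DME, 13.5% to 66.0% in psbs and 6.56% to 13.3% in WT, therefore do not overlap even though psbs replicates 2 and 5 were at 0 like most WT samples. In a test that called 33.6% of features higher, the difference of 26.9 percentage points passed (exact permutation test, two-sided, adjusted p = 0.00444 over all features). With ranks taken among the features above 0 in each sample and 0 values placed at 0%, it was 14.7 points and did not pass (exact permutation test, two-sided, adjusted p = 0.0956).

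The same change of ranking was applied to the other genes, since more values at 0 lift the rank of every feature above 0. It was chosen after seeing the data. AGL26 still stood 13.0 points higher in psbs, at 73.6% ± 3.04 in psbs and 60.6% ± 3.45 in WT (SD, n = 6 each; exact permutation test, adjusted p = 0.00500). For AGL103 the difference was -0.51 points, with 54.2% ± 9.31 in psbs and 54.7% ± 6.22 in WT (SD, n = 6 each; exact permutation test, adjusted p = 0.965). SPL was at 3.47% to 38.1% in psbs and 40.0% to 66.5% in WT, a difference of -38.6 points (exact permutation test, adjusted p = 0.00500). The share of features whose groups do not overlap in this ranking was not counted, so these ranges do not set SPL apart. AGL54 differed by -52.8 points (exact permutation test, adjusted p = 0.00500). With this ranking 17.6% of features were called higher and 38.8% lower in psbs.

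**Figure D3:**
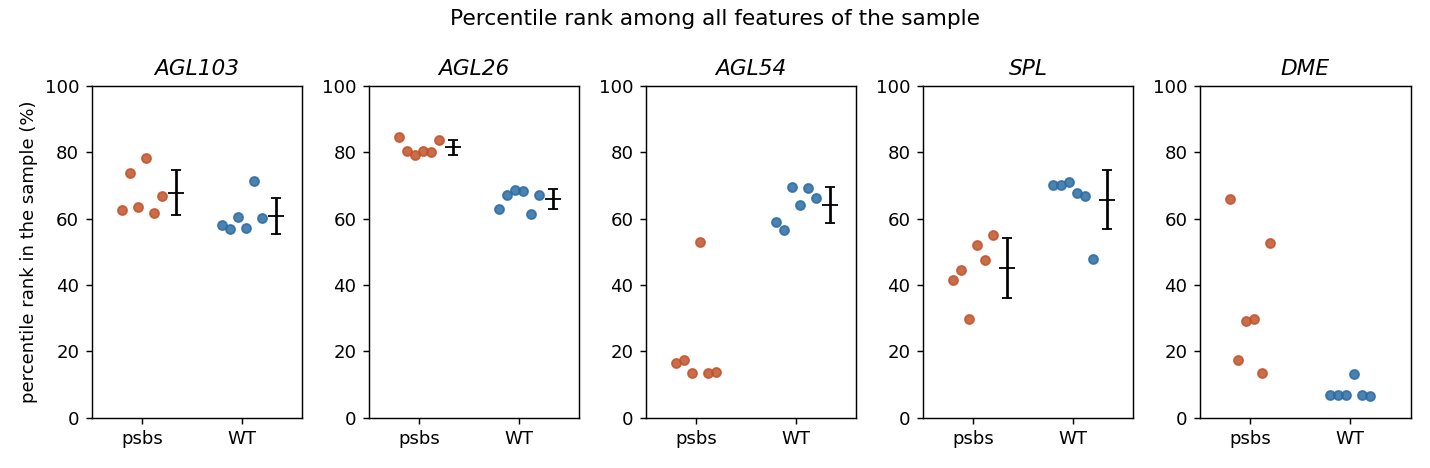
Percentile rank of each gene among all features of a sample (vertical axis, 0 to 100%) in the 6 psbs samples (left) and the 6 WT samples (right), with mean and SD only where all 6 samples are above 0. AGL26 lies wholly higher in psbs and AGL54 wholly lower, SPL and AGL103 overlap, and the lowest psbs points of DME and AGL54, at 13.5%, are values at 0.

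The genes took different places along the range of differences of all features. With values as deposited 6.25% of features had a more negative difference than AGL54, 14.5% than SPL, 56.6% than AGL103, 69.1% than AGL26 and 92.6% than DME. After quantile scaling these shares were 7.29%, 26.5%, 58.6%, 75.3% and 77.7%. AGL54 and SPL thus lay below the median feature and AGL103, AGL26 and DME above it on both scales. The same sides held after median centring (5.21%, 17.4%, 61.7%, 81.5% and 77.6%) and after cyclic loess (17.3%, 29.2%, 68.6%, 73.3% and 75.6%), with AGL26 above DME only after median centring. As deposited, after quantile scaling and after median centring DME was at the floor in all WT samples, so its difference could not be negative. Its place above the median was thus fixed in advance as deposited and after median centring, where the median differences were -2.86 and -0.41. Without psbs replicates 1 and 2, which stood apart, the quantile-scaled log2 differences were -1.92 for AGL54, -0.83 for SPL and 0.75 for AGL26, all called by limma. The difference was 0.30 for AGL103, not called. In that fit 980 features were called higher and 1042 lower.

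**Figure D4:**
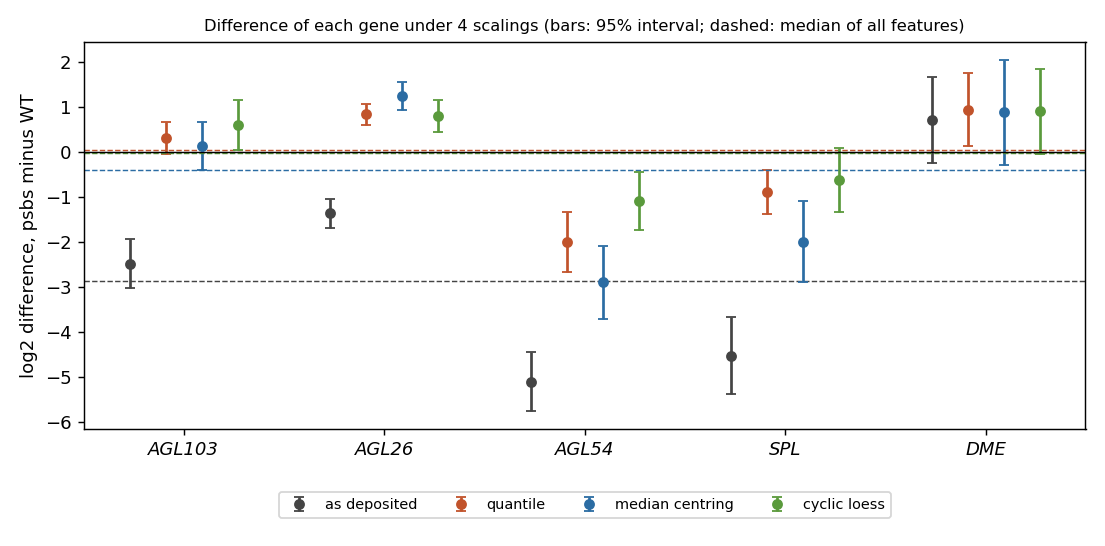
Log2 difference, psbs minus WT, of each gene (horizontal axis) with its 95% interval, under 4 treatments of the values (none, quantile, median and cyclic loess), with the median of all features under each as a dashed line. AGL54 and SPL are below 0 under all 4, AGL26 and AGL103 are below 0 only as deposited, and the dashed line for values as deposited is at -2.86.

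Samples varied more in psbs than in WT for the genes above 0 throughout. The coefficient of variation of the deposited intensity was 67.7% in psbs and 25.9% in WT for SPL, 47.3% in psbs and 11.2% in WT for AGL103, and 21.6% in psbs and 11.9% in WT for AGL26. A higher value in psbs was the rule for the 1407 features above 0 in all samples, with medians of 44.6% in psbs and 14.7% in WT, and 88.1% of these features had the higher value in psbs.

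For the genes above 0 in at least 8 samples, the single-gene features with the most similar pattern over the 12 samples were sought by Pearson correlation of scaled log2 values, as a description. The points share the group difference and the scaling, so the correlation of deviations from the group means is given as well. AGL26 was closest to FATB (r = 0.970, and 0.642 for deviations), which encodes a plastid acyl carrier protein thioesterase, to RAP74 (r = 0.964, and 0.584) and to ATSPS4F (r = 0.963, and 0.565), a sucrose phosphate synthase. A total of 45 of 673 features had an r over 0.9 with AGL26, and 0 with SPL or AGL103. SPL was closest to AT2G37580 (r = 0.873, and 0.696), AT1G12800 (r = 0.840, and 0.552) and AT2G26110 (r = 0.833, and 0.503). AGL103 was closest to AT2G23160 (r = 0.803, and 0.725), AT1G29070 (r = 0.792, and 0.702) and AT4G00590 (r = 0.761, and 0.713). Several of these features were at the floor of the scale, AT2G23160 and FATB in all 6 WT samples, AT2G26110 in all 6 psbs samples and AT1G29070 in 2 psbs and 4 WT samples, so their likeness carries little or no variation within those groups.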

How the data were processed

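The deposited table holds linear intensities, 1 per feature and sample. The sources used here give no scanner, background correction, scaling by the authors or genome build, so no coordinates are given. Groups and replicate numbers came from the sample titles. Genes were named from the platform annotation, and 690 of 692 single-gene features matched a locus of TAIR10.1, which was used for names and neighbours.

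Values were quantile normalized with 0 kept at 0, raised to a floor at the 5th percentile of positive values (0.0559 on the scaled intensities, 0.0115 on those as deposited) and log2 transformed. limma 3.58.1 in R 4.3.3 compared psbs with WT over all 12 samples and the 3359 features above 0 somewhere, with Benjamini-Hochberg adjustment over all of them and a threshold of 0.05. Percentile ranks (ties averaged) and numbers of samples at 0 were compared for every feature with exact permutation and Fisher's exact tests in Python 3.11.15 with scipy 1.17.1, adjusted likewise. Figures used matplotlib 3.10.9. The procedures were tested on simulated data.

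Named genes were the 5 members, listed pathway genes on single-gene features, and the 3 most similar features of each member above 0 in at least 8 samples. Members and lists were chosen with earlier results of these data known. Alternatives changed the scaling, floor, 0 values, dim-feature filter, blocks, weights, variance prior, ranking and samples.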

Additional observations from a re-analysis of the deposited data

Results flagged for a closer look

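Single samples far from the other 5 of their group were sought for each gene in intensity and in percentile rank, over 20 groups of values. Without ties chance alone picks about 5% of such groups. Where 5 of 6 samples are at 0, as for AGL54 in psbs and DME in WT, any intensity above 0 is picked. Their ranks carry the same values at 0. AGL54 in psbs replicate 4 had an intensity of 0.0410 and a rank of 53.0%, with the other psbs samples at 0 and at 13.5% to 17.5%. Without this sample all psbs values of AGL54 were at the floor, so the size of its difference would be set by the floor. SPL in WT replicate 6 had a rank of 47.9%, against 66.7% to 71.1% in the other WT samples. AGL103 in WT replicate 5 had a rank of 71.3%, against 56.9% to 60.6%. DME in WT replicate 4 had an intensity of 0.00530 and a rank of 13.3%, with the others at 0 and at 6.56% to 6.88%. It was the single WT sample above 0 for this gene.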

How the results depend on the processing

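Values as deposited turned AGL103 to -2.48 and AGL26 to -1.36 on the log2 scale, both called lower (limma), because the shift of the whole table then remains in the difference. Over all features 248 were then called higher and 2453 lower, against 881 and 978 after quantile scaling, and of the 3 MADS-named genes 0 were called higher and 3 lower. With only the 1407 features above 0 in all 12 samples, 711 were called higher and 391 lower. The filter removes features at 0 in any sample of either group, and the cause of the change in calls was not tested. Of the MADS-named genes 1, AGL26, was then called higher and 0 lower, because AGL54 was not among the 1407. With 0 values missing AGL54 was at -0.46 and not called (0 of the MADS-named genes lower), since 1 psbs sample was left for it. SPL was at -0.62 and not called after cyclic loess; the cause was not tested. DME, with limma adjusted p = 0.0503, passed at 0.94 with consecutive numbers averaged (adjusted p = 0.00641) and with a variance prior that follows the mean (0.0458), at 0.89 with sample weights and at 0.92 without psbs replicates 1 and 2, but not with consecutive numbers as a random block (adjusted p = 0.237). The cause was not tested. In the fits that called DME 776, 883, 1001 and 980 features were called higher, in the order given. Leaving out 1 sample in turn gave AGL103 differences of 0.21 to 0.42 and rank differences of 4.90 to 9.13 points, called only without WT replicate 5, and 1 to 2 MADS-named genes called higher. DME ran from 0.69 to 1.18, called without psbs replicate 2 or 5. AGL26, AGL54 and SPL kept direction and call in each of these fits. Ranks among features above 0 gave DME 14.7 points, not called, and 590 features called higher against 1127.

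Same-numbered samples correlated at 0.0569 to 0.154 in their deviations. Pairs of psbs and WT samples with different numbers were not examined, so these values cannot decide whether the numbers mark a pairing. With the replicate block in limma the differences were the same and no call changed (SPL at -0.89, adjusted p = 0.0297). A paired sign-flip test of ranks, whose smallest p for 6 pairs is 0.03125, called 0 of 3359 features (2114 without pairing), with differences of 15.5 for AGL26, -42.8 for AGL54, -20.5 for SPL and 26.9 for DME. Consecutive numbers correlated at 0.0682 to 0.385 in psbs and 0.274 to 0.459 in WT. If they are repeats of 1 source, each group holds 3 values and an exact permutation test cannot go below p = 0.1. With them averaged, limma adjusted p was 0.00498 for AGL26, 0.00371 for AGL54 and 0.0239 for SPL. As a random block, with a consensus correlation of 0.473, limma adjusted p was 0.000368 for AGL26, 0.00225 for AGL54 and 0.0407 for SPL.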
